A study of Mus musculus with 12 samples.

Results

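The genes described here are 33 mouse genes of the interferon response and of antigen presentation, chosen by symbol from the deposited table of normalised read counts. Of the 33, 32 had a row in the table of 34193 rows, and 28 reached a mean of 10 normalised reads over the 12 libraries and were tested, among 14397 genes tested in all. Mx1, Mx2, Oas1a and Ifi44 were below that level, and Ifi27 had no row under that symbol. Each library came from the cerebral cortex of mice aged 8 weeks, with 250 ng of total RNA put in and ribosomal RNA depleted. The conditional knockout (cKO) group was Nsd1 flx/flx with Nestin-cre +/-, and the control group was Nsd1 flx/flx with Nestin-cre -/-, with 6 libraries each. Both groups thus carry the loxP-flanked Nsd1 alleles. Nestin-Cre recombines in neural progenitors and their descendants, and microglia arise outside that lineage. Libraries of mice with Nestin-Cre and unflanked Nsd1 are not analysed here, so effects of Cre and of Nsd1 loss cannot be told apart. The labels call the samples biological replicates without naming animals, and p-values measure the spread between these libraries.

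Interferons are cytokines that cells secrete on sensing viral nucleic acid. Type I interferons act through the factor ISGF3, which contains Irf9 and binds interferon-stimulated response elements (ISRE) in target promoters. Interferon gamma acts at gamma-activated sites (GAS), and it also induces Irf1, the guanylate-binding proteins, the immunoproteasome and major histocompatibility complex (MHC) genes. In the brain, microglia and endothelial cells express MHC class I genes at rest, and neurons hold low levels that rise with interferon.

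Depth, as reads recovered from the normalised values, was 14.6 to 27.0 M reads in cKO libraries and 10.5 to 21.1 M reads in control libraries, and a value standing for 3 reads lay between 1.98 and 5.64 normalised reads. Libraries are numbered as in the table, and libraries 1 to 3 of each group held Y-linked reads while libraries 4 to 6 held almost none. Mitochondrial ribosomal RNA took 14.2% and 11.5% of reads in control libraries 4 and 5, against 1.46% to 6.00% elsewhere. The targeted gene Nsd1, a methyltransferase of histone H3 at H3K36, stood at 3251 ± 299 normalised reads in cKO and 4235 ± 850 in control cortex (SD, n = 6 each), and the log2 fold change was -0.36 (SE 0.12, limma test, adjusted p = 0.383). The 10 markers of cortical neurons all passed the level filter. Control library 3 stood apart for the genes described here, so the results are given with and without it.

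Promoter sequences of 6 genes are shown first, as examples of windows with and without the motifs searched. They are RefSeq windows of build GRCm38.p6, from 250 bases before to 50 bases after the annotated start, read 5′ to 3′ on the strand of the gene, and 26 of the 33 genes had a window. In the first 3 sequences capitals mark matches to an ISRE-like motif searched on both strands, GAAA followed by any 2 bases and a further GAAA, with overlapping matches joined into a single run.
Isg15 (chr4:156200769-156201068, minus strand): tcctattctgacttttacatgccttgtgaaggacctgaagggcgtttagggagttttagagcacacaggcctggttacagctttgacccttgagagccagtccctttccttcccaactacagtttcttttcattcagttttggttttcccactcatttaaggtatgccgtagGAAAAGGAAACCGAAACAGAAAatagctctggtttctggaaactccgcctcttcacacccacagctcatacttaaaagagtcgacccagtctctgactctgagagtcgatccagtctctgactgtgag
Ifit1 (chr19:34640639-34640938, plus strand): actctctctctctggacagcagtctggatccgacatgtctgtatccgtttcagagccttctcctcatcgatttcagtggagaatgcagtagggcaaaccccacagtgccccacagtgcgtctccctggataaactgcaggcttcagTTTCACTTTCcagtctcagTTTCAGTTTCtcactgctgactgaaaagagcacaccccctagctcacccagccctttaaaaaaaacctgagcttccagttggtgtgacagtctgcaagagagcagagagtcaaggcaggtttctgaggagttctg
Gbp2 (chr3:142620413-142620712, plus strand): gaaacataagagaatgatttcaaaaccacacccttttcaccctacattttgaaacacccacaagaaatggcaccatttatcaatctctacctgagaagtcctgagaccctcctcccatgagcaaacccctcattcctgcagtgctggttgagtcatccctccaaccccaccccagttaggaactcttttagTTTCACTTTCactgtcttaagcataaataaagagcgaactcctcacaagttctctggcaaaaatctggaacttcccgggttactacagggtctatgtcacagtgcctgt
In the next pair capitals mark and spell out the enhancer A motif of classical MHC class I promoters, which binds NF-kB factors.
H2-K1 (chr17:34000298-34000597, minus strand): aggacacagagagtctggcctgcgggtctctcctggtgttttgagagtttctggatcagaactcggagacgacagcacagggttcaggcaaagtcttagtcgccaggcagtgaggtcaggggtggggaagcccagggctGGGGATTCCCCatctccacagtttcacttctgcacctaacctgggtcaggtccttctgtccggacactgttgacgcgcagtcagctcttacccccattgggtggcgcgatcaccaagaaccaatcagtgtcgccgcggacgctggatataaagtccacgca
H2-D1 (chr17:35262844-35263143, plus strand): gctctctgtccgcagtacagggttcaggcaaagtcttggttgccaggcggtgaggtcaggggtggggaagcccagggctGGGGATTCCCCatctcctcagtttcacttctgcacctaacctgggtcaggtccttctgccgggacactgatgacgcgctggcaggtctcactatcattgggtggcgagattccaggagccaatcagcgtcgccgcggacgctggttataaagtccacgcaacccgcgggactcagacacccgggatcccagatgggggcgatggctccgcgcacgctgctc
The last window is shown without capitals, since it holds none of the motifs searched. It belongs to Tap1, and the window of Psmb9 overlaps it by 275 bases on the opposite strand, so that the neighbouring genes start from a shared stretch.
Tap1 (chr17:34187306-34187605, plus strand): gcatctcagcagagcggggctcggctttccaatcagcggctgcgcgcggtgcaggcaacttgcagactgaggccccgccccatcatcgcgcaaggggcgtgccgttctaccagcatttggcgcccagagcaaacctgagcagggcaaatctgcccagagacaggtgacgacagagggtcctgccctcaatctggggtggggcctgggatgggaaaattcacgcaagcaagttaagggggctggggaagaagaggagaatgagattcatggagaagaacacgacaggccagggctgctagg

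The ISRE-like motif was found in the windows of 12 of 26 genes, or 46.2%, against 3.99% of the 27025 genes with a window. It occurred 3 times in Isg15, between positions -78 and -57 from the start, and 2 times each in Ifit1, Ifit3, Oas1a, Bst2, Ifitm3 and Gbp3. Single matches lay in Ifih1, Ddx58, Rsad2, Gbp2 and B2m. A GAS-like motif, TTCNNNGAA, was found in 7 of 26 genes, or 26.9%, against 9.55% of all genes, and these were Irf1, Ifit2, Oas1a, Bst2, Ifitm3, Ifi35 and Psmb8. The enhancer A motif was found in 2 of 26, H2-K1 and H2-D1, against 0.0333% of all genes. In Bst2 and Ifitm3 a GAS-like match overlapped an ISRE-like match. The genes were chosen as interferon genes, so these shares describe the list, and a match shows letters and not a bound site. The letters had to match exactly, so a window without a match can still hold a variant element.

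**Figure D1:**
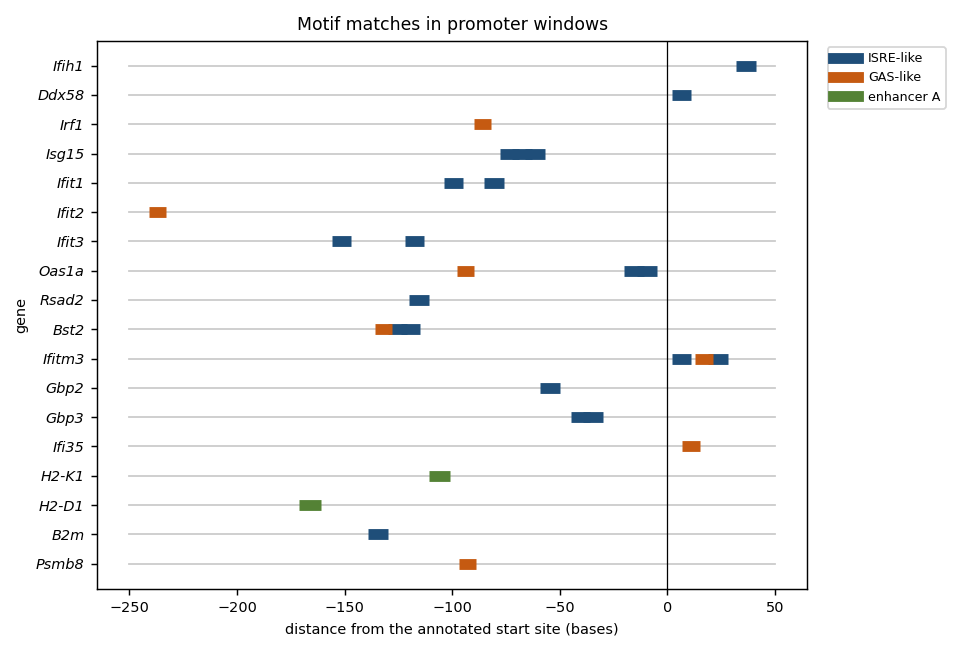
Positions of motif matches in the promoter windows of 18 genes (rows), as distance in bases from the annotated start site; grey lines span the window, blue marks ISRE-like, orange GAS-like and green enhancer A matches. Isg15 holds 3 adjoining ISRE-like matches, whereas H2-K1 and H2-D1 hold the enhancer A motif and no exact ISRE-like match, which leaves variant elements unsearched.

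Comparing cKO with control cortex asks whether interferon and antigen presentation genes differ in level when Nestin-Cre acts on loxP-flanked Nsd1. None of the 28 genes tested passed limma's threshold of an adjusted p under 0.05, where 0.834% of all 14397 genes did. edgeR on the recovered reads also called none of the 28, against 0.827% of all genes, and DESeq2 called none, against 1.1%. The authors' deposited table lists none of the 32 genes at an adjusted p under 0.05, against 0.906% of the genes given an adjusted p there, and this is the same fit as the DESeq2 one, over more genes. An unadjusted limma p under 0.05 was found for 1 of 28, Ifih1, where 9.73% of all genes had one. In no gene of the 28 did the libraries of the groups separate without overlap, while 1.01% of all genes separated. The median log2 fold change was -0.20, with 22 of 28 genes, or 78.6%, below 0, against a median near 0 and 50.1% of all genes below 0. Without control library 3 the median was -0.15 and 20 of 28 lay below 0, against 51.5% of all genes. Fold changes ran from -0.63 for Nlrc5 to 0.32 for Ifih1, and the 95% intervals of 25 of 28 genes lay inside a log2 change of 1 in either direction. The misses of the threshold do not show that levels were equal. In bulk cortex, fewer cells of a type and less RNA per cell cannot be told apart.

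**Figure D2:**
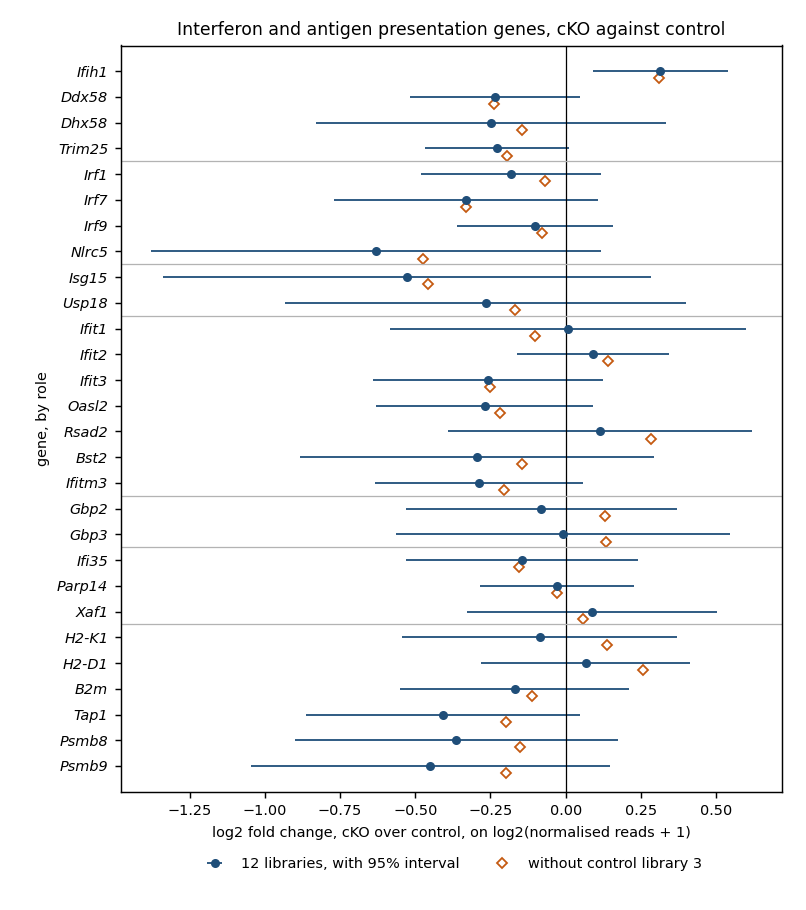
Log2 fold change of cKO over control (x axis, on log2(normalised reads + 1)) for the 28 genes tested (y axis, by role); blue points with bars are estimates from 12 libraries with 95% limma intervals, and orange diamonds are estimates without control library 3. Only the interval of Ifih1 lies wholly to the right of 0, and Gbp2, Gbp3 and H2-K1 move to the right of 0 without control library 3.

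Per kilobase of annotated exon, the most abundant of the 32 genes was B2m, at 859 normalised reads per kilobase in cKO and 931 in control cortex. H2-D1 followed at 268 in cKO and 271 in control, Ifitm3 at 151 in cKO and 184 in control, and H2-K1 at 128 in cKO and 147 in control. Ifit3 and Ifit2 came next, at 54.3 and 58.3 in cKO and 63.7 and 54.6 in control. The heavy and light chains of MHC class I were thus among the 4 highest genes per length in both groups. At the low end, Mx1 stood at 0.662 normalised reads per kilobase in cKO and 0.511 in control. Nlrc5 had 1.008 in cKO and 1.501 in control, and Ifi44 had 1.29 in cKO and 1.42 in control.

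The cytosolic sensors recognise viral RNA and signal to interferon genes. Ifih1, which encodes MDA5, the sensor of long double-stranded RNA, was the single gene with an unadjusted p under 0.05. Its values were 131, 149 and 154 normalised reads in cKO libraries and 98.6, 116 and 148 in control libraries (lowest, median and highest). Control library 5, the highest control, lay inside the cKO range, and the other 5 controls lay below each cKO library. The means were 147 ± 8.59 in cKO and 119 ± 16.3 in control (SD, n = 6 each), and the log2 fold change was 0.32 (SE 0.11), with a limma p of 0.0086 before and 0.374 after adjustment. The authors' deposited table gives Ifih1 a log2 fold change of 0.32 with an adjusted p of 0.362. Without control library 3 the log2 fold change was 0.31 (limma test, adjusted p = 0.574). The other sensors had values below 0: Ddx58, encoding RIG-I, the sensor of short double-stranded RNA, had a log2 fold change of -0.24 (limma test, adjusted p = 0.540), and Dhx58, encoding LGP2, a sensor without the signalling domain, one of -0.25 (0.722). Trim25, a ubiquitin ligase that acts with RIG-I, had a log2 fold change of -0.23 (limma test, adjusted p = 0.520).

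The transcription regulators were all 4 below 0 and none was called. Nlrc5, the transactivator of MHC class I genes, had the lowest fold change of the 28. Its values were 3.09, 6.87 and 15.4 normalised reads in cKO libraries and 8.76, 12.01 and 21.5 in control libraries (lowest, median and highest). The groups overlapped, control library 3 was the highest of the 12, and cKO library 6 was the lowest, at 3 reads. The log2 fold change was -0.63 (SE 0.35, limma test, adjusted p = 0.532) and -0.47 without control library 3 (0.748). Irf1, an interferon gamma target that itself activates MHC class I genes, lay between 70.8 and 105 normalised reads in cKO (median 80.0) and between 78.9 and 142 in control (median 87.3). Its highest value was again that of control library 3, and the log2 fold change was -0.18 (limma test, adjusted p = 0.624), or -0.07 without that library (0.886). Irf9, the DNA-binding part of ISGF3, had 88.7, 116 and 128 normalised reads in cKO and 105, 121 and 143 in control (lowest, median and highest; log2 fold change -0.10, limma test, adjusted p = 0.744). Irf7, which amplifies type I interferon production, had a log2 fold change of -0.33 (limma test, adjusted p = 0.565).

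Isg15 is a ubiquitin-like protein attached to other proteins after interferon, and Usp18 removes it and dampens the type I receptor. Isg15 had 5.94, 10.9 and 15.1 normalised reads in cKO libraries and 5.01, 14.8 and 35.0 in control libraries (lowest, median and highest). The 2 highest values, 30.1 and 35.0 normalised reads, were those of control libraries 4 and 5, which hold the most mitochondrial ribosomal RNA, and the lowest of the 12 was control library 6. The log2 fold change was -0.53 (SE 0.38, limma test, adjusted p = 0.606). Without control libraries 4 and 5 it was 0.036, so its direction rests on those libraries. What part their RNA makeup has in this was not tested. Usp18 had a log2 fold change of -0.27 (limma test, adjusted p = 0.743), with its lowest value in cKO library 2 and its highest in cKO library 6. With a library left out in turn it lay between -0.0397, without cKO library 2, and -0.46, without cKO library 6. It was -0.13 without cKO library 4, -0.17 without control library 3 and -0.43 without cKO library 1. For Isg15 the same range was -0.89, without control library 6, to -0.32, without control library 5.

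Of the 10 antiviral effectors, 7 were tested and 4 of these lay below 0. Ifit2, which binds viral RNA and was the effector with the most normalised reads, had 190.0, 223 and 286 in cKO and 178, 211 and 253 in control (lowest, median and highest). The groups overlapped, with a log2 fold change of 0.09 (limma test, adjusted p = 0.768). Rsad2, the radical SAM enzyme viperin, had 15.8, 19.7 and 22.7 normalised reads in cKO and 11.3, 16.9 and 34.4 in control (lowest, median and highest). Its highest value was in control library 3 and its lowest in control library 4, and the log2 fold change was 0.11 (limma test, adjusted p = 0.863). Bst2, or tetherin, which holds budding virions at the membrane, had a log2 fold change of -0.29 (limma test, adjusted p = 0.686). Ifitm3, a membrane protein that blocks viral entry, also had -0.29 (0.538), Oasl2, a relative of the oligoadenylate synthetases, -0.27 (0.568) and Ifit3 -0.26 (0.594). Ifit1, which binds viral RNA caps, had 0.01 (limma test, adjusted p = 0.993), the closest to 0 of the 28 in size. Below the filter, Oas1a, an oligoadenylate synthetase, ranged from 3.30 to 9.49 normalised reads in cKO and 5.01 to 8.39 in control. The dynamin-like GTPase Mx2 ranged from 4.11 to 11.1 in cKO and 6.26 to 11.4 in control. Its paralog Mx1 ranged from 1.19 to 3.78 in cKO and 0 to 3.76 in control, at or under the value of 3 reads in most libraries.

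The remaining interferon-induced genes covered a mixed set of functions and none was called. Parp14, an ADP-ribosyltransferase, had 51.5, 67.7 and 77.6 normalised reads in cKO and 59.2, 64.0 and 78.9 in control (lowest, median and highest; log2 fold change -0.03, limma test, adjusted p = 0.940). Xaf1, which binds the apoptosis inhibitor XIAP, had a log2 fold change of 0.09 (limma test, adjusted p = 0.872), and Ifi35 had -0.15 (0.758). Ifi44, below the filter, ranged from 3.56 to 13.4 normalised reads in cKO and 3.76 to 12.04 in control. RefSeq lists Ifi27l1 as an older symbol of Ifi27. That row, outside the 33 by the rule, had 301 ± 54.96 normalised reads in cKO and 349 ± 70.1 in control (SD, n = 6 each; on the log2 scale a difference of -0.21, limma test, adjusted p = 0.588).

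MHC class I molecules show peptides from inside the cell to T cells. All 6 genes of this group had their highest value of 12 libraries in control library 3. H2-K1, a classical heavy chain, had 322, 356 and 471 normalised reads in cKO and 265, 372 and 877 in control (lowest, median and highest). The other 5 controls ran from 265 to 432 and overlapped the cKO range. H2-D1, the other classical heavy chain, had 627, 678 and 777 normalised reads in cKO and 492, 601 and 1328 in control (lowest, median and highest). The other 5 controls reached at most 611, below each cKO library. B2m, the light chain, had 340.4, 800.0 and 898 normalised reads in cKO and 719, 766 and 1042 in control (lowest, median and highest). The lowest B2m value was that of cKO library 4, and the next lowest of the 12 was 719, in control library 2. Library 4 of the cKO group was also the lowest of the 12 for 21.3% of all genes tested and the highest for 19.96%; the part of that in the B2m value was not tested.

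The genes of peptide supply to MHC class I were high in the same control library as the heavy chains. Tap1, a subunit of the transporter that carries peptides into the endoplasmic reticulum, had 26.4, 34.2 and 42.2 normalised reads in cKO and 30.1, 40.3 and 101 in control (lowest, median and highest). Control library 3 was 2.38 times the next highest of the 12. Psmb9, an immunoproteasome catalytic subunit that starts from the same stretch as Tap1, had 9.84, 13.9 and 17.6 normalised reads in cKO and 13.2, 15.2 and 45.6 in control, with control library 3 at 2.21 times the next highest. Psmb8, a second catalytic subunit, had 33.9, 38.9 and 57.2 normalised reads in cKO and 35.2, 42.8 and 107 in control, where control library 5 also lay above each cKO library, at 79.7. The groups overlapped for all 6 genes with 12 libraries.

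With 12 libraries the log2 fold changes were -0.41 for Tap1 (SE 0.21, limma test, adjusted p = 0.527), -0.45 for Psmb9 (SE 0.28, 0.566) and -0.36 for Psmb8 (SE 0.25, 0.593). Without control library 3 they were -0.20 (limma test, adjusted p = 0.754), -0.20 (0.820) and -0.15 (0.852). For the heavy chains the log2 fold change was -0.09 for H2-K1 (limma test, adjusted p = 0.888) and 0.07 for H2-D1 (0.886). Without control library 3 it was 0.14 for H2-K1 (limma test, adjusted p = 0.799) and 0.26 for H2-D1 (SE 0.08), with a limma p of 0.0079 before and 0.448 after adjustment. H2-D1 was then the single gene of the 28 whose groups did not overlap, where 1.19% of all genes did not. Control library 3 was singled out for its high values in these genes, H2-D1 among them, so leaving it out raises this fold change by construction. The p of 0.0079 in limma and the lack of overlap therefore describe the other libraries and are no test of H2-D1. B2m had -0.17 (limma test, adjusted p = 0.714), and -0.11 without control library 3 (0.879). H2-K1 and H2-D1 are near copies of each other and of further MHC genes, so reads may have been divided between them, and the same holds for the Gbp, Ifit, Ifitm and Oas genes, which have close paralogs.

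**Figure D3:**
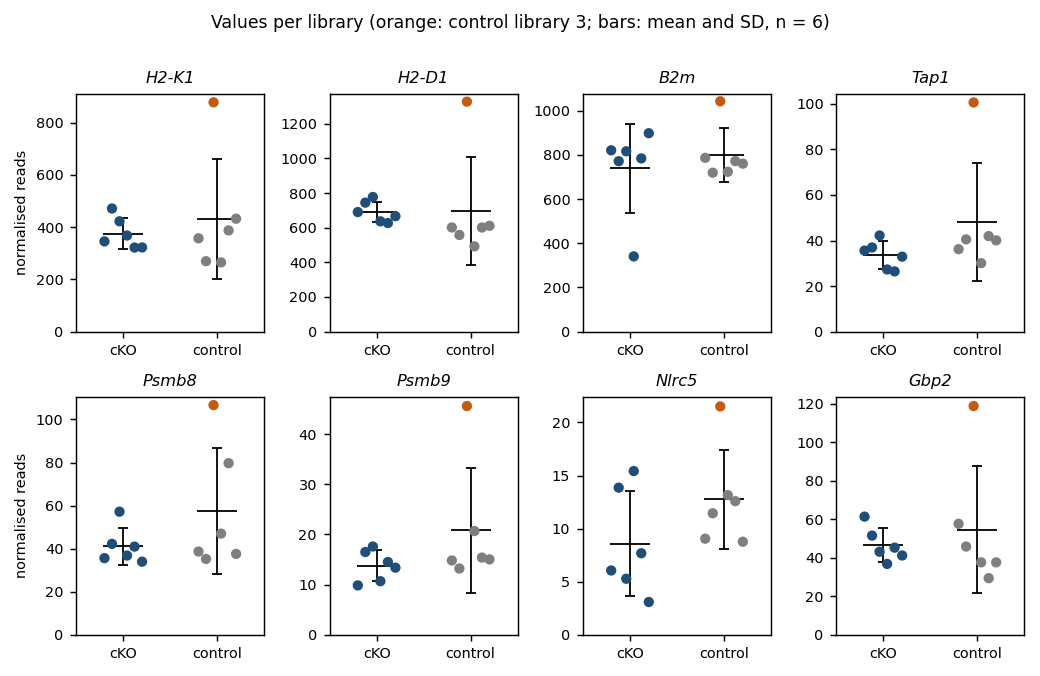
Normalised reads per library (y axis, from 0) of 8 genes in cKO (left, blue) and control (right, grey) cortex; bars are the mean and SD of 6 libraries and orange marks control library 3. Control library 3 is the highest point in each of the 8 panels, and the low B2m point at 340.4 is cKO library 4.

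Control library 3 held the highest of 12 values for 13 of the 28 genes, among them all 6 of the MHC class I group, against 8.04% of all genes, and the lowest for none of the 28, against 13% of all genes. It was at least 1.5 times the next highest library for 6 of 28, Gbp2, H2-D1, H2-K1, Psmb9, Rsad2 and Tap1, against 0.174% of all genes. Relative to the median of the other libraries it was 3.08 times for Psmb9, 2.78 for Tap1, 2.76 for Psmb8, 2.46 for H2-K1, 2.38 for Nlrc5, 2.12 for H2-D1 and 1.35 for B2m. The guanylate-binding proteins, GTPases that attack vacuoles of intracellular pathogens, shared this. Gbp2 had 36.8, 44.1 and 61.3 normalised reads in cKO and 29.4, 41.7 and 119 in control (lowest, median and highest), with 119 in control library 3 at 2.75 times the median of the others. Gbp3 had 42.9, 59.0 and 77.4 in cKO and 25.0, 67.5 and 96.3 in control, again highest in control library 3, and control library 6 was the lowest. Their log2 fold changes were -0.08 and -0.01 with 12 libraries and 0.13 each without control library 3 (limma adjusted p from 0.822 to 0.993).

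In the other role groups control library 3 lay above the median of the other libraries for most genes and below it for some. Among the antiviral effectors tested it was at 0.650 times that median for Ifit1, 0.891 for Ifit3, 1.22 for Ifit2, 1.23 for Oasl2, 1.601 for Ifitm3, 1.95 for Rsad2 and 2.35 for Bst2. Among the RNA sensors and their ligase it was at 0.777 for Ifih1, 1.25 for Trim25, 1.30 for Ddx58 and 1.53 for Dhx58. Isg15 and Usp18 were both above that median, at 1.39 and 1.58. The remaining transcription regulators, beside Nlrc5, were at 1.07 for Irf7, 1.15 for Irf9 and 1.73 for Irf1, and the other interferon-induced genes at 0.814 for Xaf1, 0.916 for Parp14 and 1.15 for Ifi35. The ISG15 pair was lowest in cKO library 2, with a mean log2 deviation of -1.06 from the 12 libraries, and highest in control library 5, at 0.82. The antiviral effectors were also lowest in cKO library 2, at -0.44, and highest in control library 3, at 0.33. The transcription regulators were highest in control library 3 too, at 0.51. The ISG15 pair is 2 genes of few reads. In cKO library 2, where 1 read stands for 0.66 normalised reads, Isg15 had 5.94 and Usp18 5.28 normalised reads. Control library 3 was above the mean for the pair as well, at 0.497, beside 0.503 in control library 4. The libraries ranked in different orders for the MHC class I group and for this pair. The part of chance in counting few reads was not tested.

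**Figure D4:**
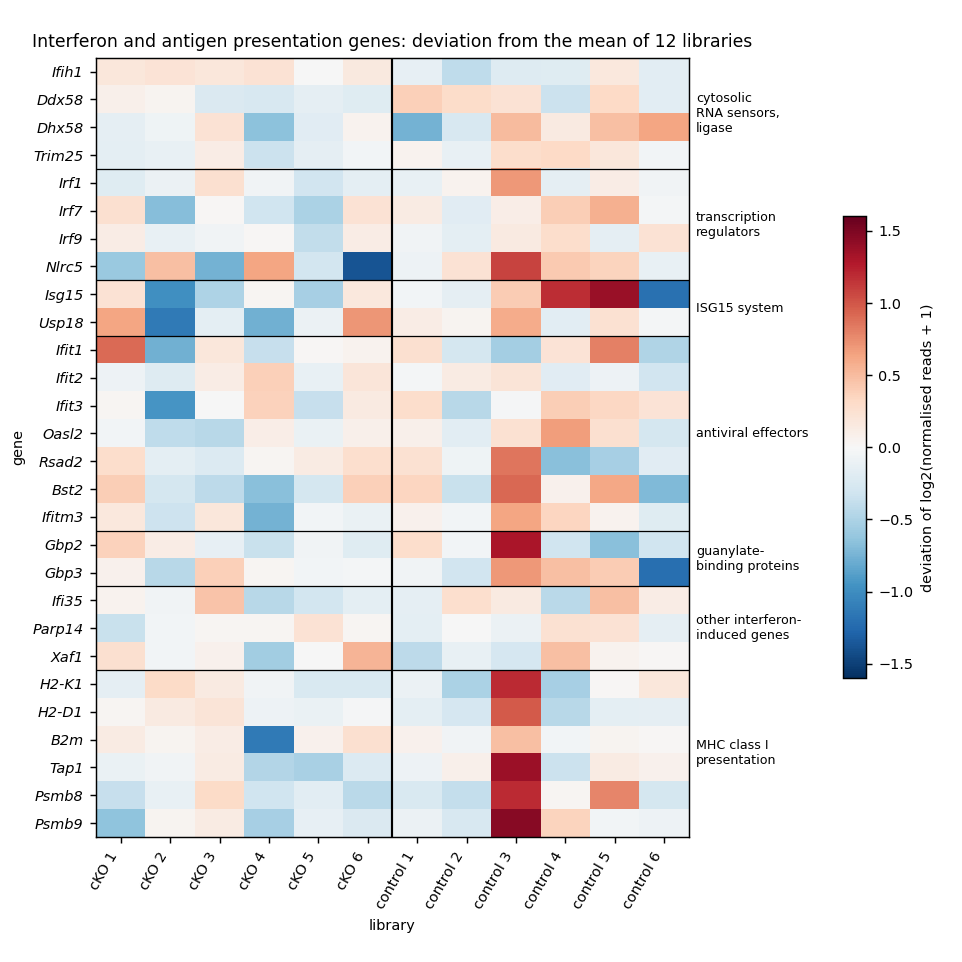
Deviation of log2(normalised reads + 1) from the mean of 12 libraries (colour, red above and blue below) for the 28 genes tested (rows, by role) in 6 cKO and 6 control libraries (columns). The column of control library 3 is red for all 6 MHC class I genes, Gbp2, Nlrc5 and Bst2 and blue for Ifit1, and the dark blue cell of B2m is cKO library 4.

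Further genes of the pathway were taken from lists of 111 genes, of which 84 were tested. With 12 libraries limma and edgeR called none of the 84, against 0.834% and 0.827% of all genes. DESeq2 called 1, Tapbpl, against 1.1% of all genes. In limma 6 were above and 4 below 0 at an unadjusted p under 0.05, together 10 of 84 against 9.73% of all genes. The median log2 fold change over the 84 was -0.01. The interferon genes themselves, Ifna1, Ifna2, Ifna4, Ifnb1, Ifnk and Ifng, were listed at 0 in all 12 libraries, that is, without a counted read. An expected level of up to about 3 reads, or 1.98 to 5.64 normalised reads, can still give 0 in a single library. That limit is for a library taken alone, and 0 in all 12 together sets a lower one, which was not computed. The 12 receptors and signal transducers were all tested, with 7 above and 5 below 0 and a median of 0.05. Socs3, a feedback inhibitor of cytokine receptors, had 69.6 ± 7.15 normalised reads in cKO and 53.6 ± 12.5 in control (SD, n = 6 each; on the log2 scale a difference of 0.39, limma test, adjusted p = 0.457), and Jak1, a receptor kinase, had a log2 fold change of 0.20 (0.506). Of 15 upstream sensors and adaptors tested, 8 were above and 7 below 0, and the smallest p belonged to Tmem173, which encodes STING (log2 fold change 0.23, limma test, adjusted p = 0.580), and Tbk1, the kinase that acts after STING and MAVS (0.17, 0.586). Of 36 other interferon-stimulated genes tested, 19 were above and 17 below 0. Lgals3bp, a secreted glycoprotein, had 166 ± 25.7 normalised reads in cKO and 215 ± 18.2 in control (SD, n = 6 each; on the log2 scale a difference of -0.38, limma test, adjusted p = 0.228). Its groups did not overlap, with 187 as the highest cKO value and 190.1 as the lowest control value, a separation found in 1.01% of all genes. Uba7, the enzyme that activates Isg15, had a log2 fold change of -0.56 (limma test, adjusted p = 0.434).

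Tapbpl, a peptide editor of MHC class I also named TAPBPR, came closest to the threshold among the further genes. It had 176 ± 12.6 normalised reads in cKO and 129 ± 15.7 in control (SD, n = 6 each), and its lowest cKO library, at 159, lay above its highest control, at 145. Of all genes tested, 1.01% had groups without overlap. For Tapbpl the fits were as follows. The log2 fold change was 0.45 (SE 0.10), with an adjusted p of 0.0567 in limma, 0.0622 in edgeR and 0.0143 in DESeq2. Without control library 3 the log2 fold change was 0.50 and passed the threshold (limma test, adjusted p = 0.0407), where 0.771% of all genes did. That library was singled out for high values in MHC class I genes and was the highest control for Tapbpl, at 145. Leaving it out raises this fold change by construction, so that pass is no test of Tapbpl. Without cKO library 4 the log2 fold change was 0.49 and passed too (limma test, adjusted p = 0.0362). With any other library left out the adjusted limma p lay between 0.0590 and 0.162, with log2 fold changes of 0.40 to 0.49. With quantile normalisation the adjusted p was 0.0148 in limma, and without the term for Y-linked reads it was 0.0489. Under the other limma alternatives Tapbpl did not pass. The adjusted p was 0.0565 and 0.0561 with pseudocounts of 0.5 and 5, 0.0643 with TMM scaling and 0.0673 with a replicate block. It was 0.0868 at a mean of at least 50, 0.0885 with no filter and 0.268 without control libraries 4 and 5. Ifitm2, of the other interferon-stimulated genes, passed without cKO library 4 and under none of the other alternatives run (limma test, adjusted p = 0.0289). Calr, a chaperone of MHC class I assembly in the endoplasmic reticulum, had a log2 fold change of 0.30 (limma test, adjusted p = 0.476). Over the 13 tested genes of this list the median was -0.03 on the log2 scale, and 6 of the 13 were highest in control library 3.

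MHC class II genes, which present peptides taken up from outside and mark microglia and border macrophages after interferon gamma, were also highest in control library 3, for 6 of the 8 tested. Cd74, the invariant chain, chosen after its values were seen, had 212 normalised reads in that library, against 29.7 to 58.0 in cKO libraries and 30.1 to 44.7 in the other controls. H2-Aa, chosen in the same way, had 71.4, against 12.1 to 21.3 in cKO libraries and 9.05 to 28.2 in the other controls. H2-Ab1 had 92.9 normalised reads in control library 3, 9.90 to 19.7 in cKO libraries and at most 27.96 in the other controls, and its log2 fold change was -0.84 (limma test, adjusted p = 0.5001), or -0.46 without that library (0.721). H2-DMa, a chaperone of class II, had a log2 fold change of -0.15 (limma test, adjusted p = 0.612).

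**Figure D5:**
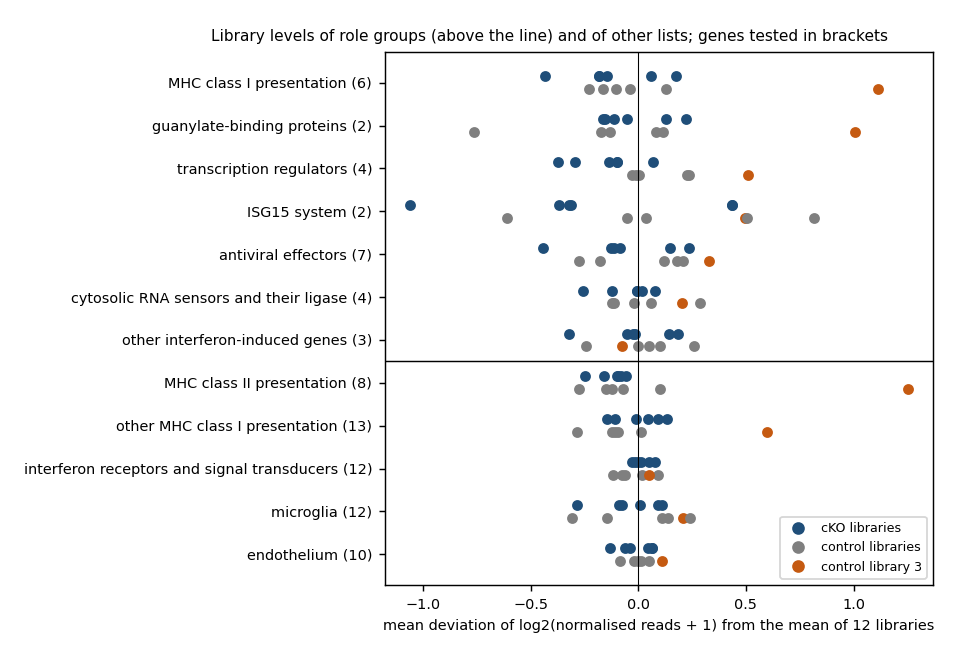
Mean deviation of log2(normalised reads + 1) from the mean of 12 libraries (x axis) for the 7 role groups and 5 further lists (y axis, number of genes tested in brackets), each point a library. Control library 3 (orange) lies at 1.11 for MHC class I and 1.25 for MHC class II genes, far from the other 11 libraries, and close to them for receptors, microglia and endothelial markers.

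Markers of cells that could carry these transcripts were set beside the results. The summed level of 12 microglial markers was 6953 to 8862 normalised reads in cKO and 6936 to 8812 in control libraries, and control library 3 was the highest control. The 10 endothelial markers summed to 3477 to 3831 in cKO and 3492 to 3901 in control, with 3865 in control library 3. The 10 markers of T and NK cells summed to 17.8 to 31.8 in cKO and 16.9 to 53.8 in control, with 29.2 in control library 3, and 9 of the 10 stayed below 10 normalised reads in each library. The 6 B cell markers summed to 2.37 to 16.7 in cKO and 5.59 to 11.5 in control. Markers of blood and border myeloid cells summed to 274 to 379.6 in cKO and 284 to 419 in control, with 398 in control library 3. The 5 red blood cell genes summed to 857 to 1739 in cKO and 1011 to 3582 in control. All 5 had log2 fold changes below 0 without a call, with a median of -0.69. An unadjusted limma p under 0.05 was found for 4 of the 5, where 9.73% of all genes had one. The part of these cells in the values above was not tested.

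The labels give both sexes in each genotype, but in 8 of 12 columns the Y-linked reads went against the sex labelled for that number. The effect was therefore compared between libraries with and without Y-linked reads. No gene of 14397 passed the adjusted test of the difference, and 8.77% had an unadjusted p under 0.05, among them 2 of the 28. Rsad2 had a log2 fold change of -0.38 with and 0.61 without Y-linked reads (limma test, adjusted p = 0.562), and Ifit2 -0.16 with and 0.34 without (0.562). The signs differed between the sets in 10 of the 28 genes, against 47.2% of all genes. Control library 3 is among the 3 controls with Y-linked reads.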

How the data were processed

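RNA was sequenced from 12 cortex samples. The authors deposited a table of DESeq2-normalised read counts (a signal per gene and library) with their own DESeq2 columns, which hold log2 fold changes, a test score, p-values and adjusted p-values, per the file headers. Build mm9 and the tools STAR, Bowtie, Trim Galore and bedtools stand in the submitters' processing notes, and no source used here gives the strand setting of the counting. Columns name the genotype, so libraries were assigned to genotype only. Each value was a whole number of reads times a factor per library (100% of values above 0, tolerance 0.01 reads), so reads were recovered for edgeR and DESeq2. A DESeq2 refit with the Y-linked term gave the deposited log2 fold changes within 1e-04 for 100.0% of 14397 genes, so both stand for a single fit.

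The test was limma-trend (version 3.58.1, R 4.3.3) on log2(value + 1) over genes whose mean reached 10 normalised reads, with terms for genotype and for Y-linked reads and Benjamini-Hochberg adjustment over 14397 genes. The pseudocount of 1 understates fold changes of low genes. edgeR (4.0.16, quasi-likelihood) and DESeq2 (1.42.0) were alternatives, and summaries used Python 3.11.15. The test was tried on simulated data first. The changes simulated were larger than those estimated for the genes described here. The trial therefore does not show how often changes of these smaller sizes would be called. Genes given in full had an unadjusted p under 0.05, were among the 3 highest or 3 lowest fold changes, had the highest mean of their role, or held a library far from its group. Further pathway genes are named where called or by the 2 smallest p-values of a list. The members and lists were chosen with earlier results of these data known. Promoter windows came from RefSeq GRCm38.p6 and exon lengths from GENCODE on GRCm38, matched by symbol.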

Additional observations from a re-analysis of the deposited data

Results flagged for a closer look

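In groups of 6 libraries, a value was singled out when its gap to the nearest other library exceeded 0.625 of the group's range. Chance does this in about 1 in 20 groups if values follow a normal distribution. The rule was applied to normalised reads without taking logs, and whether they follow that distribution was not tested. Of 92 groups from 46 genes, 15 held such a value, and 11 of the 15 were in control library 3. These include Cd74 and H2-Aa, which were chosen for their values in that library, and without both genes it was 13 of 88 groups, with 9 in control library 3. For the interferon and antigen presentation genes themselves it was 11 of 64 groups, with 8 in control library 3. All these genes share the same libraries, and further pathway genes were picked by their p-values, so the groups are not independent. The share of such groups over all genes tested was not computed, so an excess over chance was not tested.

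In control library 3 the MHC class I values far above the other controls were 877 normalised reads for H2-K1, 1328 for H2-D1, 1042 for B2m, 101 for Tap1 and 45.6 for Psmb9. Irf1 stood at 142, Nlrc5 at 21.5 and Gbp2 at 119 normalised reads there. The MHC class II genes Cd74, H2-Ab1 and H2-Aa stood at 212, 92.9 and 71.4.

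In the cKO group, library 4 was far from the other 5 for B2m, at 340.4 normalised reads, and for Tbk1, at 1092. Library 5 was far below the others for Ifih1, at 131, and library 3 far above them for Psmb8, at 57.2.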

How the results depend on the processing

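None of the 28 genes was called under any of 23 alternatives, and their smallest adjusted p was 0.173. Of the 11 other alternatives, those that tested the same 28 genes gave a median log2 fold change from -0.21 to -0.14. With no filter, where more of the listed genes were tested, the median was -0.17. At a mean of at least 50, where fewer of the 28 were tested, it was -0.09, so that value describes another set of genes. With a library left out in turn the median of the 28 ran from -0.25 to -0.12. Calls over all genes numbered 58 at a mean of at least 50, where fewer genes are tested, against 120, and 97 to 123 with a library left out. Leaving out a library gave 0 to 7 calls for the difference between the Y-linked sets, with 7 without control replicate 6. With a replicate block 118 genes were called and none of the 28, and Nsd1 as the targeted gene had an adjusted limma p of 0.0926. Same-numbered columns correlated at 0.0911 to 0.497, with 4 of 6 over 0.1. Such columns also share the split by Y-linked reads, and columns of different numbers were not correlated. The correlations therefore cannot show whether the numbers pair the libraries, which is unsettled. The sign held under all alternatives that tested the gene for 18 of 28 genes. It changed without control libraries 4 and 5 for Isg15 (0.0360), Rsad2 (-0.14), Gbp3 (0.32), Parp14 (0.0523) and H2-D1 (-0.0103), in edgeR for Rsad2 (-0.0164) and H2-D1 (-0.00648), and with quantile normalisation for Gbp3 (0.00704). With a library left out, log2 fold changes ran from -0.20 to 0.18 for Ifit1, -0.17 to 0.13 for Gbp2, -0.26 to 0.13 for Gbp3, -0.0869 to 0.0235 for Parp14, -0.00423 to 0.24 for Xaf1, -0.24 to 0.14 for H2-K1, -0.0207 to 0.26 for H2-D1 and -0.28 to 0.0352 for B2m. The cause was not tested. The value of 3 reads, 1.98 to 5.64 normalised reads, limits Mx1, Oas1a and Nlrc5.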
